A study of Mus musculus with 5 samples.

Results

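The step from day 2 to day 6 of culture was examined in mouse rib chondrocytes (cartilage-forming cells in primary culture) on 2 of the 5 arrays of a culture time course. Cells were freed with collagenase and trypsin from rib cages of FVB mouse embryos at embryonic day 18.5, with no genetic change or drug group named in the labels. They grew at high density on gelatin in DMEM/F12 with 10% fetal bovine serum, ascorbic acid and 10 mM beta-glycerophosphate. There was 1 array at day 2 and 1 at day 6, and single arrays at days 9, 12 and 15 gave the later levels. The labels do not say how many embryos were pooled, or whether all days came from a common isolate. Of 18193 annotated genes, 14385 had a signal intensity above a floor of 73.1, the 40th percentile of all values, on at least 1 of the days 2 and 6, and these are called measured.

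Chondrocytes in cartilage sit in a matrix of type II collagen and the proteoglycan aggrecan, under the control of the transcription factor Sox9. Freed from that matrix by enzymes and plated on a flat surface, they can take on fibroblast features, with type I and type III collagen in place of the cartilage collagens. Ascorbic acid allows collagen to be hydroxylated and secreted, and a phosphate source is used so that mature cultures can mineralise.

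At day 6 signals were higher for genes of fibrous matrix, of secreted growth factor regulators and of cholesterol synthesis. They were lower for ribosome building, for the EGF receptor ligands Hbegf and Ereg, for Ptgs2 and for several desmosome proteins. Those of the cartilage matrix genes Col2a1, Col9a1, Col11a1, Acan and Hapln1 differed by less than 2-fold, while type X collagen was far lower. Among all measured genes 1322 (9.19%) were higher by 2-fold or more and 958 (6.66%) lower by 2-fold or more, and 254 and 89 of these differed 4-fold or more. Counts of list members are to be read against these shares. With 1 array a day there is no replicate error and no test, so every value below describes a pair of arrays, and the number of arrays limits the precision. For a gene at the floor on 1 day the fold is a lower limit and carries the words "at least".

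Both arrays had nearly the same median signal, 117 at day 2 and 118 at day 6, with 61.3% and 61.9% of probe sets at or above the floor. The median log2 difference of all measured genes was 0.00. The mean signal after trimming 2% at each end was 500 on both arrays, so their values stand on a common scale. Similar medians are therefore no independent sign of quality, and each difference is relative to that scale. Control probe sets for both ends of Actb mRNA, a sign of RNA integrity, gave end ratios of 1.17 and 1.25. Probe sets for the same gene show how much single probe sets err, though not how much arrays or dishes do. In 6142 genes with a second probe set the SD of a difference from 1 probe set was 0.52 on the log2 scale. Of 464 such genes 2-fold or more higher by the brightest probe set, 80.8% had the same direction by the second and 42.9% also reached 2-fold, against 80.0% and 39.3% of 290 lower genes. Where a second probe set of a named gene differed by over 1.5 times, its value is given.

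**Figure D1:**
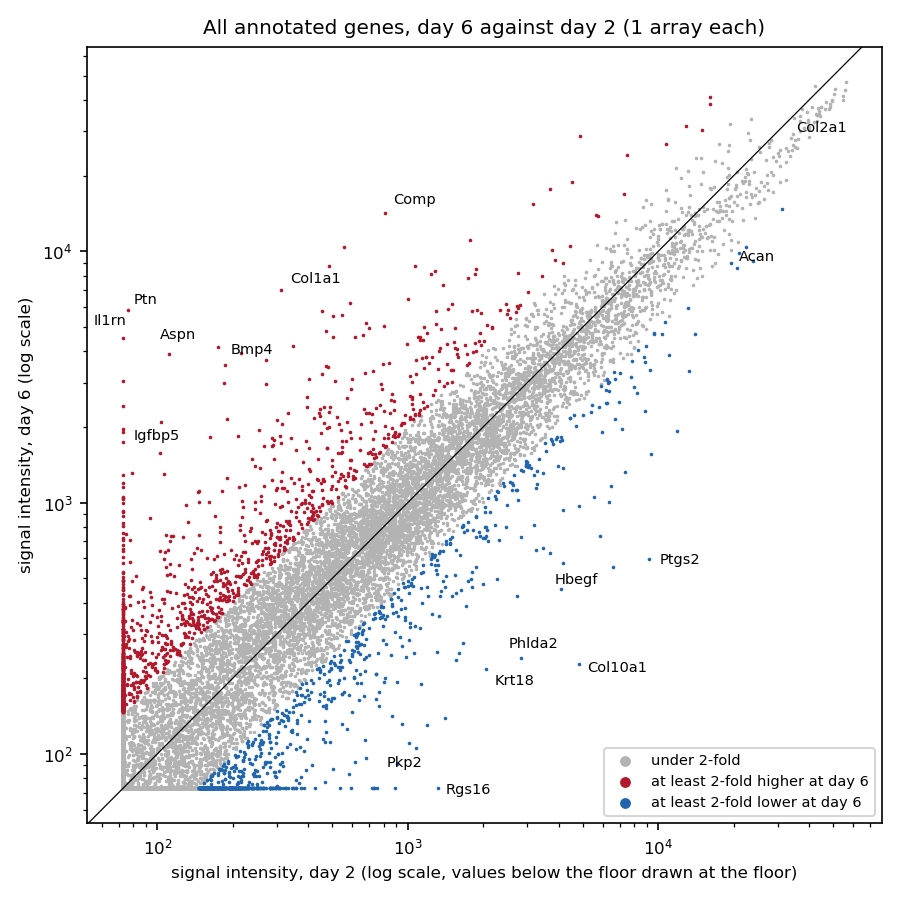
Signal intensity of each annotated gene at day 2 (x axis) and day 6 (y axis), both on log scales, 1 point per gene and 1 array per day, with values below 73.1 drawn at that floor. Red points mark the 1322 genes up by 2-fold or more and blue points the 958 down by as much; Ptn and Il1rn lie farthest above the line of equality and Col10a1 and Ptgs2 among those farthest below it.

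With both days above the floor, the largest difference was that of Ptn, a heparin-binding growth factor, with 76.3 on day 2 and 5833 on day 6, 76.5-fold higher (at least 42.7-fold higher by a second probe set). Il1rn, the secreted antagonist of the interleukin-1 receptor, was below the floor at day 2 with 23.4 and had 4524 at day 6, at least 61.9-fold higher. Both were still high on the later arrays, when Il1rn had 17499, 19749 and 4729 at days 9, 12 and 15. Ecrg4, a secreted peptide precursor, was 18.0-fold higher, and Cbr2, a carbonyl reductase, 16.3-fold higher. Ndnf, a secreted protein, was 18.3-fold higher (a second probe set lay below the floor on both days). Large bounds were found for Tmem26, at least 41.5-fold higher (at least 12.4-fold higher by a second probe set), Rcan2, an inhibitor of calcineurin, at least 33.1-fold higher (6.81-fold higher by a second probe set), Enpep, a membrane aminopeptidase, at least 26.9-fold higher, and Svep1, a large extracellular protein, at least 26.1-fold higher. Enpep was lower again at day 15: its signals over the 5 arrays in order of day were 72.0, 1966, 2877, 1635 and 175.

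In the other direction Col10a1 had the largest difference where both days were above the floor. A lower limit of similar size was found for Rgs16, a brake on G protein signalling, which had 1314 on day 2 and 32.2 on day 6, at least 18.0-fold lower (at least 8.21-fold lower by a second probe set). F13a1, a transglutaminase of clotting, was 10.1-fold lower, and the phosphatase gene Ptpre 9.17-fold lower (at least 2.80-fold lower by a second probe set). The urea transporter gene Slc14a1 was at least 12.1-fold lower (at least 5.36-fold lower by a second probe set), the engulfment receptor gene Megf10 at least 10.3-fold lower, the R-spondin receptor gene Lgr6 at least 10.0-fold lower (at least 3.02-fold lower by a second probe set), Cd300lb at least 9.84-fold lower and the cystatin gene Cst6 at least 8.11-fold lower. Other probe sets did not show all of these differences. Nudt6 was 9.12-fold lower (1.09-fold higher by a second probe set), and Ggct, an enzyme of glutathione breakdown, 7.89-fold lower (at least 1.28-fold higher by a second probe set).

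Fibrous matrix genes, above all the type I and type III collagens, had higher signals at day 6. Of 32 listed genes 31 had a probe set and 30 were measured, with 14 up by 2-fold or more, 2 down by as much and 14 in between. Their median log2 difference was 0.79, against 0.00 for all measured genes. Among the fibrillar collagens, Col1a1, the first chain of type I collagen, had 313 on day 2 and 7029 on day 6, 22.5-fold higher (8.14-fold higher by a second probe set). Its partner chain Col1a2 had 555 on day 2 and 10352 on day 6, 18.7-fold higher. Col3a1, the type III chain found with type I in soft tissue, was 12.8-fold higher, with 453 on day 2 and 5785 on day 6. Their signals were higher again later: at day 15 they had 36146, 44563 and 38737.

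Genes of proteins that organise those fibrils were higher too. Col14a1, which coats collagen fibrils, was at least 9.68-fold higher (at least 2.43-fold higher by a second probe set), and Col12a1, of the same class, 7.16-fold higher (3.55-fold higher by a second probe set). Thbs2, a thrombospondin that binds cells and proteases, had 501 on day 2 and 4562 on day 6, 9.11-fold higher (5.47-fold higher by a second probe set). Of the elastic fibre genes, Eln, elastin, was at 28.4 at day 2 and 1038 at day 6, at least 14.2-fold higher (at least 4.34-fold higher by a second probe set), and the microfibril gene Fbn2 was 7.25-fold higher (4.75-fold higher by a second probe set). Eln was highest at day 6 of all 5 arrays, with 547, 883 and 487 afterwards. Postn, periostin, was 2.17-fold higher at this step, with 323, 699.7, 2965, 3508 and 4981 over the 5 arrays. Fn1, fibronectin, was within 2-fold, with 36924 on day 2 and 32873 on day 6. The lower members were Col15a1, a basement membrane collagen, and Vcan, versican, a large proteoglycan, at least 2.69-fold lower and 2.00-fold lower (4.77-fold lower by a second probe set).

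The small leucine-rich proteoglycans, which bind collagen fibrils and set their thickness, had a list median of 1.03 (0.62 over all 15 with a probe set). Of 15 listed genes 13 were measured, with 7 up by 2-fold or more, 0 down by as much and 6 in between. Aspn, asporin, led with 111 on day 2 and 3904 on day 6, 35.2-fold higher (19.6-fold higher by a second probe set). Dcn, decorin, was 6.44-fold higher (a second probe set lay below the floor on both days), Lum, lumican, 5.30-fold higher, and Fmod, fibromodulin, 4.87-fold higher. Bgn, biglycan, had 14941 on day 2 and 30428 on day 6, 2.04-fold higher, just past the threshold. The median of this list was close to 0 in each of the 3 later steps (0.05, 0.00 and 0.15), and it was 1.68 when only genes past the 70th percentile of mean intensity were kept.

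Enzymes that process collagen had no common direction. Of 24 measured genes 5 were up by 2-fold or more and 2 at least 2-fold lower, with a median of 0.39. The cross-linking enzyme lysyl oxidase, Lox, had 4853 on day 2 and 28642 on day 6, 5.90-fold higher, and its relative Loxl1 was 4.07-fold higher (a second probe set lay below the floor on both days). Collagen hydroxylases and the collagen chaperone were nearly level: P4ha1 was 1.04-fold higher, Plod2 1.22-fold lower and Serpinh1, the collagen chaperone, 1.37-fold higher. Pcolce2, an enhancer of procollagen cleavage made in cartilage, went the other way, with 13222 on day 2 and 3344 on day 6, 3.95-fold lower, and the prolyl 3-hydroxylase gene P3h2 was 3.56-fold lower.

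Matrix proteases differed both ways. Of 28 measured proteases and inhibitors 9 were up by 2-fold or more and 4 lower, with a median of 0.58. Adamts5, which cleaves aggrecan, had 292 on day 2 and 1767 on day 6, 6.04-fold higher (at least 24.5-fold higher by a second probe set). Mmp23 was 5.88-fold higher (14.4-fold higher by a second probe set), Mmp13, collagenase 3, 2.47-fold higher, and the gelatinase Mmp2 2.18-fold higher. The plasminogen activator gene Plat was 5.69-fold higher (at least 1.24-fold higher by a second probe set). The 4 lower members were the kallikreins Klk10 and Klk8, the urokinase receptor gene Plaur and the stromelysin gene Mmp3. Klk10 had 4091 on day 2 and 452 on day 6, 9.05-fold lower; Klk8 was 5.29-fold lower, Plaur 4.97-fold lower and Mmp3 3.44-fold lower. Klk10 was lower still afterwards, with 180.1, 98.5 and 80.3 on the later arrays.

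The main cartilage matrix transcripts were within 2-fold at this step. All 25 listed genes were measured, with 10 up by 2-fold or more, 1 down by as much and 14 in between, and a median of 0.38. For type II collagen, Col2a1 had 46505 on day 2 and 39066 on day 6, 1.19-fold lower, and the type IX and type XI chains Col9a1 and Col11a1 were 1.30-fold higher and 1.17-fold lower. Aggrecan, Acan, was 1.76-fold lower and its link protein Hapln1 1.56-fold lower, both under 2-fold. Lower levels of Acan came after day 6, with 2092, 723 and 2328 at days 9, 12 and 15. The 1 lower member of the list was Pcolce2.

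Of the 10 higher members of the cartilage list, Comp and Fmod are also on the tendon list. Comp, a cartilage oligomeric protein found in tendon too, had 813 on day 2 and 14232 on day 6, 17.5-fold higher, and 7901, 9864 and 12248 on the later arrays. Otor, a small secreted protein of cartilage, was at least 14.2-fold higher. Matn1, a matrilin of mature cartilage, had 213 on day 2 and 1154 on day 6, 5.42-fold higher, and Scrg1 was 6.31-fold higher. Cnmd, chondromodulin, an inhibitor of vessel growth, was 2.55-fold higher, and the lubricin gene Prg4 was at least 4.88-fold higher.

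Regulators of the chondrocyte state showed no common direction, with a median of 0.22 (0.00 over all 18 with a probe set) over 15 measured genes, 2 up by 2-fold or more and 2 lower. Sox9 had 4269 on day 2 and 2634 on day 6, 1.62-fold lower. Its partners Sox5 and Sox6 were 1.16-fold higher and 1.05-fold lower. Fgfr3, the growth factor receptor that restrains cartilage growth, was 1.82-fold higher (1.05-fold higher by a second probe set) and had 1382 at day 9. Cytl1, a secreted protein of cartilage, peaked here, with 469.7, 3510, 1057, 397 and 93.3 over the 5 arrays, 7.47-fold higher at day 6 than at day 2. Gdf5, a signal of forming joints, was at least 2.66-fold lower.

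Genes of hypertrophic cartilage, the enlarged zone that precedes bone, differed in both directions. Col10a1, whose type X collagen marks that zone, had 4800 on day 2 and 228 on day 6, 21.0-fold lower, the largest difference downward where both days were above the floor. Its signals at days 9, 12 and 15 were 35.1, 270.1 and 1686, highest at the last of them. All 13 of the 17 listed genes that had a probe set were measured, with 4 up by 2-fold or more and 2 lower. The lower members were Col10a1 and Bmp6, a bone morphogenetic protein. The 4 higher were Ibsp, bone sialoprotein, 6.29-fold higher (1.33-fold higher by a second probe set), Panx3, a channel gene, 6.22-fold higher (1.05-fold lower by a second probe set), Pth1r, the parathyroid hormone receptor, 4.51-fold higher, and Mmp13. Ihh, the hedgehog ligand of prehypertrophic cells, was near the floor, with 16.1 on day 2 and 86.0 on day 6, and Vegfa was 1.01-fold higher (3.28-fold lower by a second probe set).

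Bone genes were mixed. Of 24 listed genes 17 had a probe set and 13 were measured, with 5 up by 2-fold or more, 1 lower and a median of 0.53 (0.00 over all 17 with a probe set). Besides the type I collagen chains, Postn and Ibsp, Dlx5, a homeobox gene of bone-forming cells, was at least 2.97-fold higher. Sp7, osterix, was 1.35-fold higher. Dmp1, a protein of mineralising matrix, was below the floor on both days, with 32.6 and 44.3, and reached 759 at day 9. Alpl, whose phosphatase supports mineral deposition, had 126 on day 2 and 69.8 on day 6, at least 1.72-fold lower, and 637 at day 9. The list median was 1.15 in the step from day 6 to day 9, more than its 0.53 here.

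**Figure D2:**
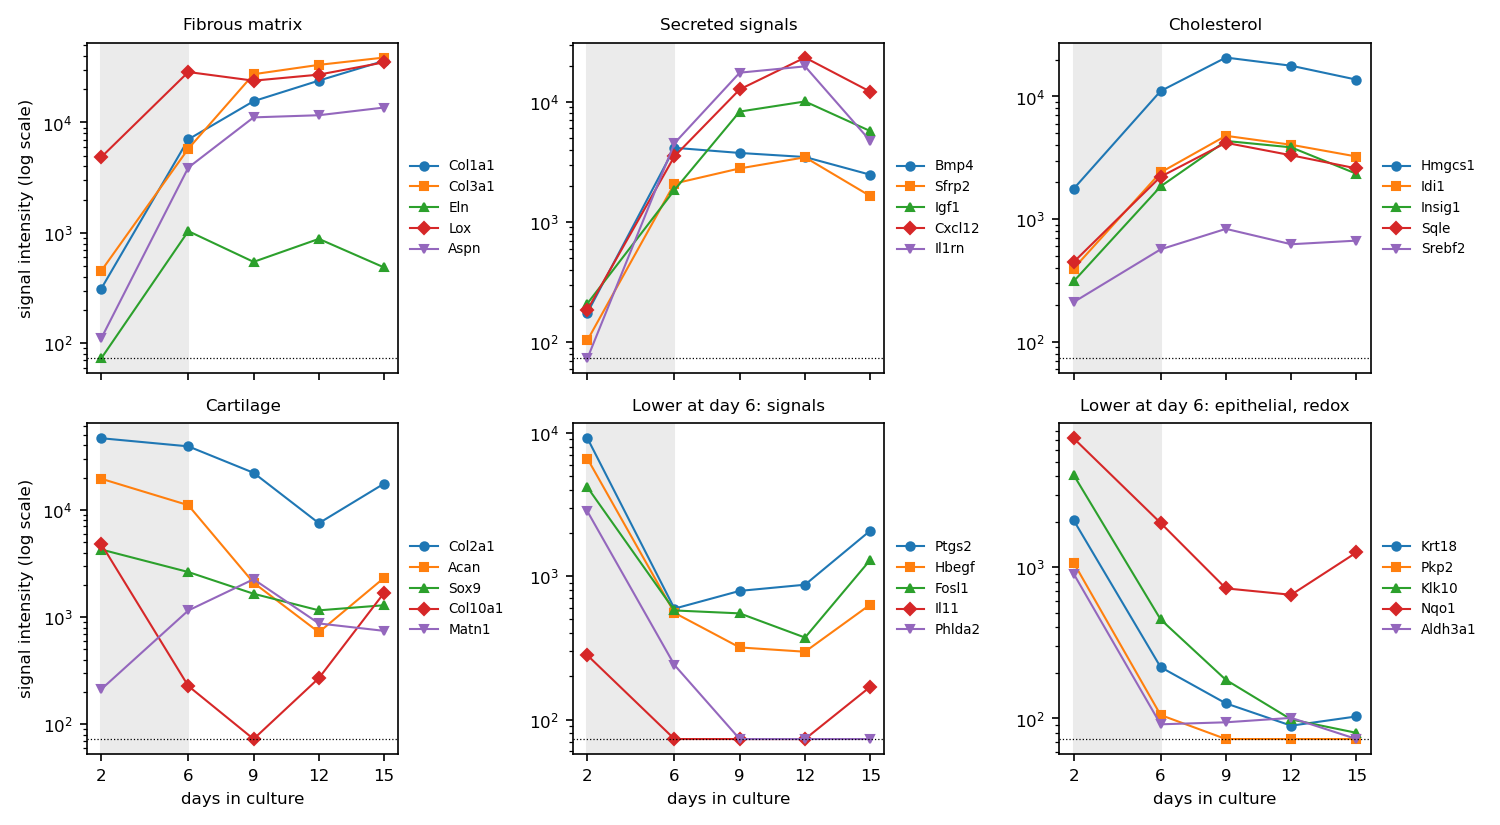
Signal intensity (y axis, log scale) of 30 genes in 6 groups against days in culture (x axis), 1 array per day, with values below the floor of 73.1 (dotted line) drawn at it and the step from day 2 to day 6 shaded. Col1a1, Aspn, Bmp4 and the cholesterol genes are higher at day 6, Col2a1 is nearly level, and Col10a1, Ptgs2, Hbegf and Krt18 are lower.

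Most cholesterol synthesis genes were higher at day 6. Cells build cholesterol from acetyl units through mevalonate, and the genes of the route share control by the transcription factor SREBP2, which is held inactive by Insig1 when sterols are plentiful. Of 28 listed genes 23 had a probe set and all 23 were measured: 18 were higher by 2-fold or more, 0 lower, and all 23 had a difference above 0. The list median was 1.58, against 0.00 for all measured genes. The upstream sequences of the 5 members with the largest differences among those that RefSeq's promoter table (GRCm38.p6) holds are shown because the members of this list differed in the same direction. Each line gives the 200 bases before the gene's start, 5' to 3' on the gene's own strand, with the letters CCAAT, or ATTGG where the match is on the other strand, and the sterol response element TCACNCCAC in capitals.
Hmgcs1: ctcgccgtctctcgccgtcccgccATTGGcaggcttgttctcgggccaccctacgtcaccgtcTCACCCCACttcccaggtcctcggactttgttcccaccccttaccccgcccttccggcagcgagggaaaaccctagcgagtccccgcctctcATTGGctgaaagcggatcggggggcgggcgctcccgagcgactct
Idi1: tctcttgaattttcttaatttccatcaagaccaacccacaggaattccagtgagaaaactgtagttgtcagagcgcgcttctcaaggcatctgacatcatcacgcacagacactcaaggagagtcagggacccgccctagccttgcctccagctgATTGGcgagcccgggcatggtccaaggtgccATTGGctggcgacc
Insig1: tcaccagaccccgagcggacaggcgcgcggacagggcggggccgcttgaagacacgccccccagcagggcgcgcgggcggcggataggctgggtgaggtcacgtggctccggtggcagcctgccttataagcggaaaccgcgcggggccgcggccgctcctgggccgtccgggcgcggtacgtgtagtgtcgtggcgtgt
Tm7sf2: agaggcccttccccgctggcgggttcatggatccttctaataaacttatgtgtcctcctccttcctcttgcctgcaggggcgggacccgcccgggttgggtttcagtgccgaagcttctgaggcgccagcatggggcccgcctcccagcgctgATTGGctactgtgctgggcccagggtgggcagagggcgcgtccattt
Cyp51: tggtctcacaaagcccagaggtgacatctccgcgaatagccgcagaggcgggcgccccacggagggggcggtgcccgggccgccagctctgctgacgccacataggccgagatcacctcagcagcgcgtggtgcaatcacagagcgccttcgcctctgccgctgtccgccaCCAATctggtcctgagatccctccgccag
These stretches lie at chr13:119690151-119690350 (plus strand), chr13:8885406-8885605 (plus strand), chr5:28071212-28071411 (plus strand), chr19:6067851-6068050 (minus strand) and chr5:4104698-4104897 (minus strand).

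Searched on both strands over the 250 bases before the start, CCAAT was present in 16 of the 17 measured list members that have an entry (94.1%), against 37.5% of 27025 genes with an entry, and in 27 of 33 members of the mitosis list (81.8%). The motif TCACNCCAC was found in 1 of the 17, Hmgcs1, against 1.23% of all genes, and the GC box GGGCGG in 15 of the 17 (88.2%), against 35.4%. Each other list searched also lay above that share for the GC box, so its excess was not particular to the cholesterol list. It was present in 22 of 33 members of the mitosis list (66.7%) and 17 of 28 of the ribosome biogenesis list (60.7%). In the fibrous matrix list 12 of 20 members had it, and in the cartilage matrix list 10 of 19 (52.6%). List members were all measured here, while the 27025 genes include many that were not, so these shares come from unlike sets of genes. Each motif was searched on its own, so a base could count for more than 1 motif. Of the printed stretches Hmgcs1 and Idi1 hold CCAAT 2 times each, Tm7sf2 and Cyp51 1 time each, and Insig1 not at all. These are matches of letters only.

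Hmgcs1, which makes the precursor of mevalonate, had 1764 on day 2 and 11078 on day 6, 6.28-fold higher. Idi1, which prepares the isoprene unit, had 394 on day 2 and 2402 on day 6, 6.09-fold higher, and Insig1, the sterol-sensing brake, 310.2 on day 2 and 1846 on day 6, 5.95-fold higher. Sqle, squalene epoxidase, which starts the sterol branch, was 4.97-fold higher. Further along the route Fdps was 4.33-fold higher (a second probe set lay below the floor on both days), Cyp51 4.21-fold higher, Msmo1 3.98-fold higher (at least 1.05-fold lower by a second probe set) and the sterol reductase gene Tm7sf2 at least 4.29-fold higher. Srebf2, which encodes SREBP2, was itself among the higher members, with 210.0 on day 2 and 566 on day 6. At day 9 the list was higher still, with a median of 0.92 for the step from day 6 to day 9, and it was lower in the later steps (-0.22 and -0.36).

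**Figure D3:**
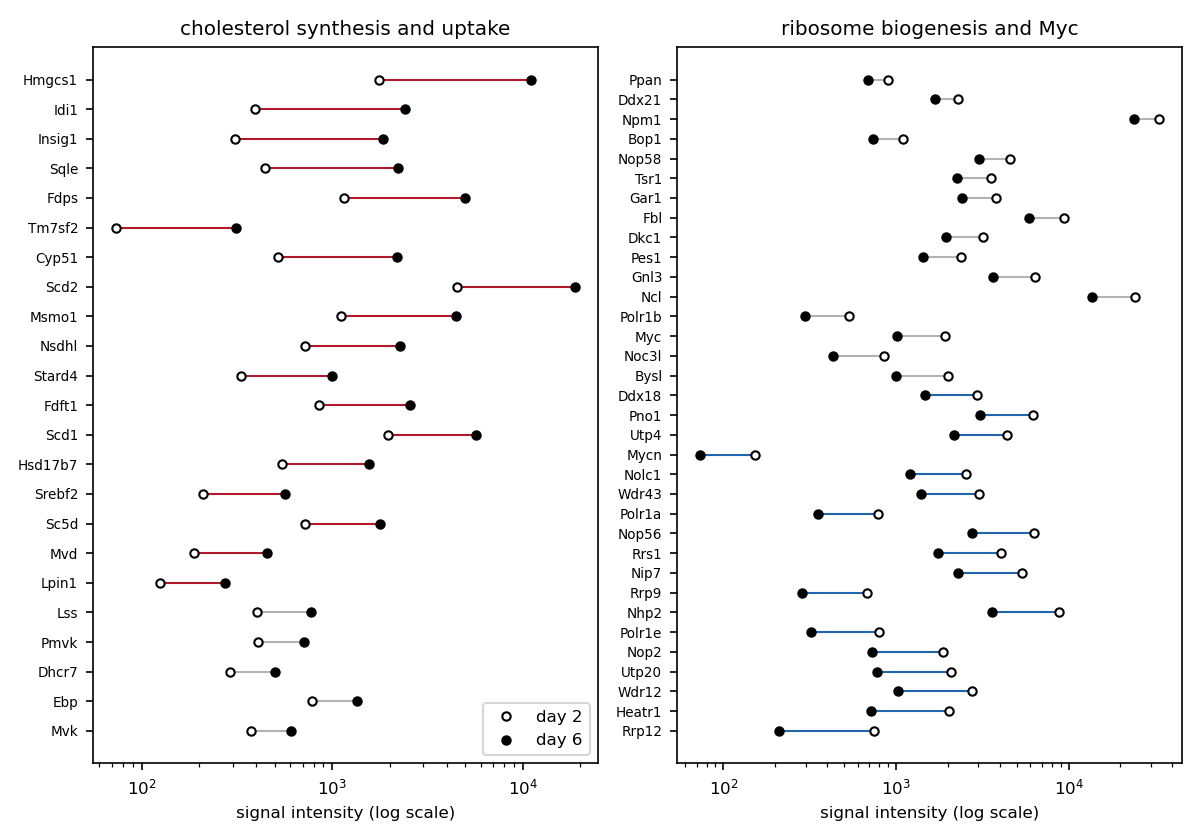
Signal intensity (x axis, log scale) at day 2 (open circles) and day 6 (filled circles) for each measured gene of the cholesterol list (left, 23 genes) and of the ribosome biogenesis list (right, 34 genes), 1 array per day. Red lines mark genes at least 2-fold higher and blue lines genes at least 2-fold lower at day 6; each cholesterol gene is higher and each ribosome gene lower.

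Other lipid genes were less uniform. Of 25 measured genes of fat storage and fatty acid synthesis 6 were up by 2-fold or more and 0 lower, with a median of 0.22. Lpl, lipoprotein lipase, was 6.51-fold higher, the desaturase gene Scd1 2.91-fold higher and Acadm, which oxidises medium-chain fatty acids, 4.09-fold higher. Fasn, fatty acid synthase, had 1905 on day 2 and 1848 on day 6, and Plin2, a coat protein of lipid droplets, was 1.31-fold lower.

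Secreted signals and their binding proteins made up many of the largest differences. In the Wnt list, whose ligands act through Frizzled receptors and beta-catenin, 34 of 35 genes had a probe set and 28 were measured, with 12 up by 2-fold or more, 1 down by as much and 15 in between, and a median of 0.87 (0.58 over all 34 with a probe set). The 4 largest differences were in genes of secreted proteins. Sfrp2, a soluble decoy for Wnts, had 103 on day 2 and 2089 on day 6, 20.2-fold higher. Dkk3, of the Dickkopf family, was at least 14.4-fold higher (5.28-fold higher by a second probe set), Ccn5 at least 12.7-fold higher and Wif1, a Wnt inhibitor, at least 5.65-fold higher. The ligand Wnt5a was 1.77-fold higher. Lef1 and Axin2, used as readouts of beta-catenin signalling, were near the floor: Lef1 had 92.9 on day 2 and 81.7 on day 6 and Axin2 53.1 and 69.4 (at least 1.92-fold higher by a second probe set).

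In the BMP and TGF-beta list, growth factors that act through Smad proteins, 41 of 44 genes were measured, with 10 up by 2-fold or more, 5 down by as much and 26 in between, and the median was 0.12. Among ligands, Bmp4, a bone morphogenetic protein, had 175 on day 2 and 4145 on day 6, 23.6-fold higher, and stayed at 3754, 3472 and 2472. Gdf10 had 79.4 on day 2 and 1316 on day 6, 16.6-fold higher, while Bmp2 was 1.60-fold lower and Tgfb2 2.17-fold higher (4.94-fold higher by a second probe set). Among receptors, Tgfbr2 was 4.12-fold higher and the co-receptor gene Tgfbr3 4.57-fold higher (2.00-fold higher by a second probe set). The BMP antagonist gene Grem1, gremlin, was 4.56-fold higher. Id1 and Id2, direct targets of BMP signalling, were 1.72-fold lower and 2.75-fold lower.

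The insulin-like growth factors drive growth of cartilage, and their binding proteins hold them in the matrix. Of 25 measured genes of this family and of imprinted growth control 8 were up by 2-fold or more and 1 lower, with a median of 0.46. Igf1 had 209 on day 2 and 1843 on day 6, 8.81-fold higher (at least 20.2-fold higher by a second probe set), and Igf2 16068 on day 2 and 38657 on day 6, 2.41-fold higher (11.7-fold higher by a second probe set). Igfbp5 was at least 23.8-fold higher (2.57-fold higher by a second probe set) and Igfbp2 at least 13.6-fold higher. Cdkn1c, an imprinted inhibitor of cell division, had 679.7 on day 2 and 5188 on day 6, 7.63-fold higher. The single lower member was Phlda2, an imprinted gene that limits placental growth, with 2830 on day 2 and 240.1 on day 6, 11.8-fold lower, and no more than 61.1 on the 3 later arrays.

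Hbegf and Ereg, ligands of the EGF receptor, were lower at day 6. In the list of FGF, EGF and related factors 27 genes were measured, 4 up by 2-fold or more and 4 lower, with a median of 0.11. Hbegf, a ligand shed from the cell surface, had 6604 on day 2 and 555 on day 6, 11.9-fold lower (7.20-fold lower by a second probe set), and Ereg, epiregulin, 1600 on day 2 and 251 on day 6, 6.37-fold lower. Errfi1, which is induced by the receptor and inhibits it, was 2.20-fold lower, and Met, the receptor for hepatocyte growth factor, 5.97-fold lower. Egfr, the receptor, went the other way, with 309 on day 2 and 962 on day 6, 3.11-fold higher. The other higher members were Pdgfc, a platelet-derived growth factor, 6.99-fold higher, its family's receptor Pdgfrb 2.52-fold higher (at least 5.85-fold higher by a second probe set) and Fgfr2 2.99-fold higher.

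Genes induced early by growth factor signalling were lower in the same step. Of 29 measured members 7 were down by 2-fold or more and 1 higher, with a median of -0.58 (-0.34 over all 31 with a probe set). Fosl1, a subunit of the AP-1 transcription factor, had 4168 on day 2 and 577 on day 6, 7.23-fold lower (at least 15.9-fold lower by a second probe set). Jun, its partner, was 2.10-fold lower, and the phosphatase genes Dusp6 and Dusp5, which switch off ERK, were 2.79-fold lower and 2.87-fold lower. Fos and Egr1 were within 2-fold, at 1.19-fold higher and 1.12-fold lower. The single higher member, Egr3, was 3.11-fold higher (at least 1.12-fold lower by a second probe set). The list median was 0.89 from day 6 to day 9, when Fos went from 539 to 7631.

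Inflammatory signals differed both ways, with 4 of 24 measured genes up by 2-fold or more and 4 lower, and a median of 0.43 (0.15 over all 30 with a probe set). Ptgs2, the inducible enzyme of prostaglandin synthesis, had 9162 on day 2 and 594 on day 6, 15.4-fold lower (9.92-fold lower by a second probe set). Il11, a cytokine of the interleukin-6 family, was at least 3.84-fold lower. Cxcl12, a chemokine of stromal cells, had 186 on day 2 and 3518 on day 6, a log2 difference of 4.25. Besides Il1rn, Hp, haptoglobin, was 5.06-fold higher and Csf1, a growth factor for macrophages, 2.18-fold higher (1.18-fold higher by a second probe set). Of the complement and antigen presentation list 4 of 10 measured genes were higher and 2 lower, led by the complement proteases C1ra, which had 24.0 on day 2 and 806 on day 6, and C1s1, at least 6.93-fold higher.

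A few interferon genes were higher. Of 30 listed genes with a probe set 21 were measured and 9 lay below the floor on both days, with 5 up by 2-fold or more, 0 lower and a median of 0.61 (0.16 over all 30 with a probe set). Irgm1, an interferon-induced GTPase, was 5.12-fold higher and Gbp2 at least 3.20-fold higher (at least 1.72-fold higher by a second probe set). Rtp4 was 3.74-fold higher (at least 1.41-fold lower by a second probe set), and Ifit1 was below the floor on both days, with 12.5 and 13.9, before 929.8 at day 9. The list median in the step from day 6 to day 9 was 1.77.

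All measured ribosome biogenesis genes were lower at day 6. These genes make and modify ribosomal RNA and assemble the subunits, and many are targets of Myc. Of 35 listed genes 34 were measured, 18 down by 2-fold or more, 0 higher, and all 34 differed in the same direction, with a median of -1.02. Rrp12, which acts in export of ribosomal subunits, had 747 on day 2 and 209 on day 6, 3.58-fold lower. The processing factors Heatr1, Wdr12 and Utp20 were 2.83-fold lower, 2.68-fold lower (1.18-fold lower by a second probe set) and 2.67-fold lower. Differences were smaller for the main nucleolar proteins: Ncl, nucleolin, was 1.79-fold lower, Fbl, fibrillarin, 1.61-fold lower and Npm1, nucleophosmin, 1.39-fold lower. Myc had 1916 on day 2 and 1019 on day 6, 1.88-fold lower. The list was also lower in each later step, by less (-0.38, -0.09 and -0.28).

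Cell division genes were lower by smaller amounts. Of 39 measured mitosis genes 37 had a difference below 0, with 4 down by 2-fold or more, 0 higher and a median of -0.61. Nek2, a centrosome kinase, was 3.04-fold lower (1.44-fold lower by a second probe set), Anln, a cytokinesis protein, 2.14-fold lower and the centromere histone gene Cenpa 2.22-fold lower (1.20-fold higher by a second probe set). Mki67, the usual marker of dividing cells, had 3989 on day 2 and 3771 on day 6, 1.06-fold lower. Of 37 measured replication genes 3 were down by 2-fold or more and 0 higher, with a median of -0.36. Rrm2, which makes the building blocks of DNA, had 19428 on day 2 and 8997 on day 6, 2.16-fold lower, and the helicase subunit Mcm2 was 1.61-fold lower. Both lists were also lower in the step from day 6 to day 9, with medians of -0.58 and -0.55.

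Regulators of the cycle differed both ways, among cyclins and among inhibitors. Ccnd1, cyclin D1, was 1.81-fold lower (2.79-fold lower by a second probe set). Cdkn1a, a cycle inhibitor and target of p53, had 7765 on day 2 and 3172 on day 6, 2.45-fold lower. Mdm2, another p53 target, had 3978 on day 2 and 1400 on day 6, 2.84-fold lower. Beside Cdkn1c, the inhibitor gene Cdkn2b was 2.63-fold higher, and Ccng2, a cyclin of resting cells, had 357 on day 2 and 1626 on day 6, 4.56-fold higher. In all 4 of 25 measured genes were up by 2-fold or more and 3 down, the median being 0.29.

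Redox and detoxification genes differed both ways. Of 27 measured genes 9 were down by 2-fold or more and 5 higher, with a median of -0.24. Nqo1, a quinone reductase, had 7142 on day 2 and 1965 on day 6, 3.63-fold lower, and the aldehyde dehydrogenase gene Aldh3a1 908 on day 2 and 91.5 on day 6, 9.92-fold lower. Txnrd1, thioredoxin reductase, Srxn1, sulfiredoxin, and Gclc, which starts glutathione synthesis, were 2.88-fold lower, 2.75-fold lower and 2.06-fold lower. Nqo1, Txnrd1, Srxn1 and Gclc are textbook targets of the oxidant sensor Nrf2. Hmox1, another, was 1.45-fold lower, which is within 2-fold. The activity of Nrf2 was not tested. Tfrc, the receptor for iron uptake, had 6359 on day 2 and 1004 on day 6, 6.33-fold lower, while Slc40a1, the iron exporter, was 4.59-fold higher. Genes of secreted selenium proteins were higher, with Selenop at least 6.69-fold higher and Gpx3 2.43-fold higher.

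Most energy and stress lists were closer to level. Of 31 measured respiratory chain genes 0 were higher and 0 lower by 2-fold, with a median of -0.13. In the glycolysis list 1 of 21 measured genes was higher and 2 lower, with a median of -0.24; the glucose transporter gene Slc2a1 was 1.82-fold lower and Pkm, pyruvate kinase, 2.40-fold lower. The list of low-oxygen genes outside glycolysis was less level, with a median of 0.49. Of its 27 measured genes 7 were higher (25.9%, against 9.19% of all measured genes) and 2 lower past 2-fold. Its leaders were Ppp1r3c, a glycogen regulator, 15.4-fold higher (at least 7.66-fold higher by a second probe set), and Lox. Egln3, which oxygen shortage induces strongly, was 2.15-fold lower (a second probe set lay below the floor on both days). The other lower gene, Car12, had 344 on day 2 and 62.2 on day 6. It was at least 4.71-fold lower (a second probe set lay below the floor on both days). Medians of heat shock chaperones and of amino acid stress genes were -0.29 and -0.05, with 2 of 18 and 2 of 27 genes higher and 0 and 1 lower. Among genes of folding in the endoplasmic reticulum 3 of 25 were higher and 0 lower past 2-fold, and the median was 0.14; Sdf2l1 was 3.76-fold higher and Pdia4 7.12-fold higher (at least 1.19-fold higher by a second probe set), but the main chaperone Hspa5 was 1.30-fold lower.

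Transcription factors of connective tissue included 12 genes past 2-fold upward. Of 50 listed genes with a probe set 44 were measured, with 12 up by 2-fold or more, 2 down by as much and 30 in between, and a median of 0.54. Prrx2, a homeobox gene of limb and facial mesenchyme, had 313 on day 2 and 2061 on day 6, 6.58-fold higher, and its relative Prrx1 was 2.11-fold higher. The T-box gene Tbx18 was 4.09-fold higher (a second probe set lay below the floor on both days) and Foxp2 3.81-fold higher. The 2 Twist genes, which encode related helix-loop-helix factors, differed in direction: Twist1 had 181 on day 2 and 546 on day 6, 3.03-fold higher, and Twist2 1658 on day 2 and 276 on day 6, 6.01-fold lower. Sox11, a factor of progenitor cells, was 2.51-fold lower, with 161, 97.3 and 54.3 afterwards.

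Of the integrins, the receptors that hold cells to matrix, 4 of 17 measured genes were higher and 4 lower past 2-fold, and the median was 0.03. Itga6, a laminin receptor subunit, had 4163 on day 2 and 933 on day 6, 4.46-fold lower, and Itga3, another, was 3.15-fold lower (5.46-fold lower by a second probe set). Itga10, the collagen receptor subunit of chondrocytes, was 3.10-fold lower, and Itga1, a collagen receptor subunit of other connective tissue, 3.81-fold higher. The shared beta subunit Itgb1 was level, with 7028 on day 2 and 7170 on day 6. In the hedgehog and parathyroid hormone-related pathway 4 of 15 measured genes were higher and 1 lower past 2-fold, and the median was 0.30. Gas1, a co-receptor of hedgehog ligands, had 547 on day 2 and 5578 on day 6, 10.2-fold higher (4.67-fold higher by a second probe set), while Ptch1, a readout of that pathway, was level at 1118 and 1150 (at least 1.54-fold lower by a second probe set). Gli2 was 3.13-fold higher (1.94-fold lower by a second probe set).

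**Figure D4:**
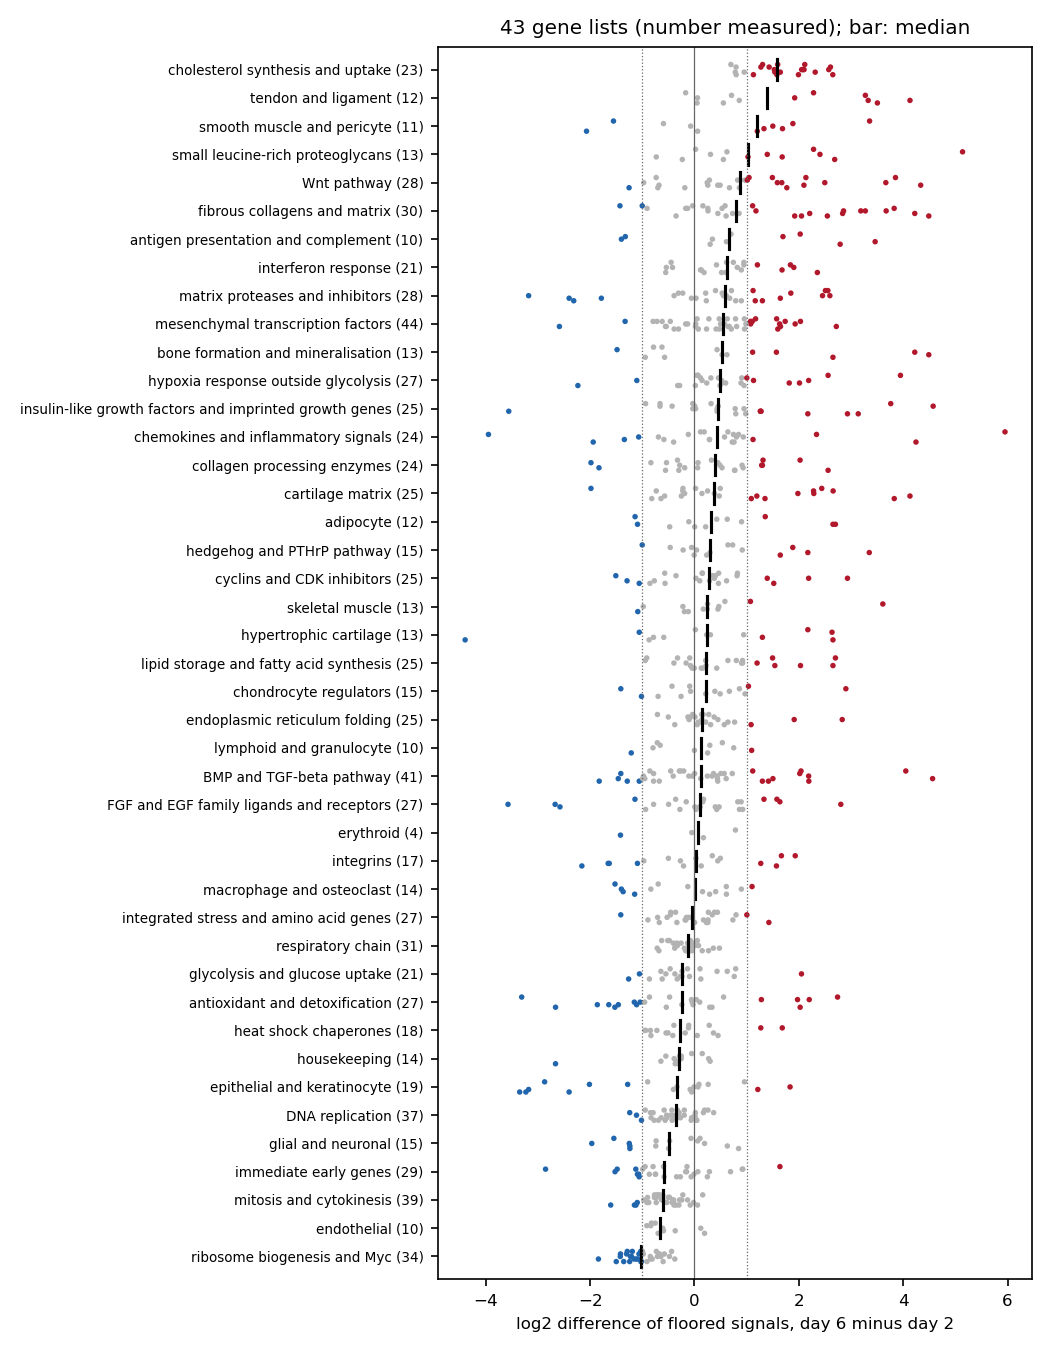
Log2 difference of signals between day 6 and day 2 (x axis) for each measured member of 43 gene lists (rows, with the number measured), 1 point per gene and 1 array per day; black bars are list medians, dotted lines mark 2-fold, and red and blue points lie past it. At the floor used here the cholesterol list has the highest median, 1.58, and ribosome biogenesis the lowest, -1.02, but other floors or filters put the tendon list above it (2.06 to 3.28) and filters put the epithelial list below (-1.28 and -2.40).

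Markers of other cell types that a rib cage isolate could hold were measured on the same arrays. The chondrocyte genes Col2a1, Acan, Col9a1, Sox9, Matn3 and Hapln1 had signals from 2664 to 46505 at day 2 and from 2634 to 39066 at day 6. Among defining blood, immune and vessel markers, Hba-a1 and Alas2 (red cells), Cd3e (T cells) and Pecam1 (vessels) lay below the floor on both days. Adgre1 (macrophages) had 155 on day 2 and 172 on day 6. Other markers were above the floor on both days: the vessel genes Kdr and Cldn5 had 123 and 141 at day 2 and 81.8 and 83.7 at day 6, and the macrophage genes Cd68 and Csf1r 252 and 379.6, then 141 and 172. The T cell gene Cd2 had 160 and 92.0, and the granulocyte gene Ngp 84.2 and 84.1. At day 6 only, the vessel gene Cdh5 (21.6, then 83.6) and the red cell gene Gata1 (72.9, then 126) were above the floor. Above the floor were 9 endothelial genes at day 2 and 5 at day 6, and 12 and 11 of the macrophage list. Summed signals of the endothelial list were 1926 and 1399 over 19 genes, those of the macrophage and osteoclast list 3622 and 3579 over 26. In the endothelial list 0 of 10 measured genes were past 2-fold in either direction, with a median of -0.65 (0.00 over all 19 with a probe set), and in the macrophage list 1 of 14 was higher and 4 lower (median 0.01), Csf1r being 2.21-fold lower (1.60-fold higher by a second probe set). The higher member of the macrophage list was Acp5, an osteoclast gene, with 36.3 on day 2 and 157 on day 6, at least 2.15-fold higher. Lymphoid and granulocyte genes had a median of 0.13 (10 of 20 measured), and erythroid genes 0.06 (4 of 12).

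Krt18 and several desmosome genes on the epithelial list were lower, and most other members were within 2-fold. Of 28 listed genes 19 were measured, 7 down by 2-fold or more and 2 higher, with a median of -0.34 (0.00 over all 28 with a probe set) that was -1.28 with a filter at the median intensity and -2.40 at the 70th percentile. The summed signal of the list went from 15445 to 4106. Krt18, a keratin of simple epithelia, had 2052 on day 2 and 219 on day 6, 9.39-fold lower. The plakophilin gene Pkp2, of desmosomes, had 1075 on day 2 and 105 on day 6, 10.2-fold lower. Its relative Pkp1 had 535 on day 2 and 15.5 on day 6, at least 7.32-fold lower, and Dsp, desmoplakin, was 4.04-fold lower. Defining epithelial markers were near the floor or within 2-fold on these arrays: Cdh1 was 5.56 and 77.6, Epcam 233 and 185 (at least 1.35-fold higher by a second probe set), Krt5 165 and 159.6, and Krt14 121 and 91.6. In such bulk samples fewer cells of a type and less RNA per cell cannot be told apart, and the part of epithelial cells in these values was not tested.

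Glial and neuronal genes were lower in 5 of 15 measured genes and higher in 0, with a median of -0.50 (0.00 over all 22 with a probe set). Fabp7, a fatty acid binding protein of glia, had 1808 on day 2 and 462 on day 6, 3.91-fold lower, and Cdh19, a cadherin of Schwann cells, was 2.38-fold lower. Sox10, which defines that lineage, had 88.6 on day 2 and 159 on day 6, and S100b, which chondrocytes also make, 1422 on day 2 and 2200 on day 6. The summed signal was 6456 and 5025 over 22 genes with a probe set, and the part of such cells in other values was not tested.

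Some contractile and tendon genes were higher at day 6. Of 18 smooth muscle and pericyte genes 11 were measured, 6 up by 2-fold or more and 2 lower. Their median of 1.20 (0.00 over all 17 with a probe set) was 0.50 with the mean over probe sets, 0.58 with a floor at the 60th percentile and 0.59 with probe sets chosen on days 2 and 6. Myl9, a myosin light chain, had 471 on day 2 and 4825 on day 6, 10.2-fold higher, Tagln, transgelin, 1799 on day 2 and 5794 on day 6, 3.22-fold higher, and Acta2, smooth muscle actin, 7307 on day 2 and 16841 on day 6, 2.30-fold higher (at least 1.23-fold higher by a second probe set). Myh11, the myosin that defines mature smooth muscle, lay below the floor, with 7.63 and 62.8, and the pericyte gene Rgs5 had 77.0 and 73.1, and 55.3 and 109.9 by a second probe set. Of the 2 lower members, Cspg4, a pericyte gene, had 1997 on day 2 and 476 on day 6, 4.19-fold lower. Summed signals of the list were 14014 and 31913.

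Of 12 measured tendon genes 6 were higher and 0 lower past 2-fold. Their median was 1.39 (0.86 over all 13 with a probe set), and it lay between 2.06 and 3.28 with other floors or with dim genes left out. Tnmd, tenomodulin, had 74.9 on day 2 and 753 on day 6, 10.1-fold higher, but Scx, the factor that specifies tendon, was level at 136 and 140.3, and Mkx at 95.6 and 99.6. Comp, Fmod, Tnc and Col14a1 stand in both the tendon list and a matrix list, so those counts are not independent. The summed tendon signal was 8666 and 38445; the part of tendon or contractile cells in the matrix values was not tested.

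Adipocyte genes were mixed at this step. Of 12 measured genes 3 were higher and 2 lower past 2-fold, and the median was 0.32 (0.11 over all 14 with a probe set). Fabp4, a fat cell fatty acid binding protein, had 267 on day 2 and 1680 on day 6, 6.30-fold higher, but Adipoq, adiponectin, was level at 79.3 and 79.6 before 5191 at day 9, and Pparg, the master factor of fat cells, was 1.08-fold lower. Of 13 measured skeletal muscle genes 2 were higher and 1 lower past 2-fold. Their median was 0.25 (0.00 over all 22 with a probe set). Tnnt3, a fast muscle troponin, was 12.2-fold higher. The lower member, the defining marker Myod1, had 155 on day 2 and 25.2 on day 6. It was at least 2.12-fold lower (a second probe set lay below the floor on both days). Myog and Myh3 lay below the floor on both days.

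Set side by side, the steps of the culture had their largest list medians in different programmes. Of all 18193 genes 7.27% were up and 5.27% down by 2-fold or more from day 2 to day 6. The shares were 3.84% and 3.71% from day 6 to day 9, 1.45% and 1.17% from day 9 to day 12, and 3.16% and 2.78% from day 12 to day 15. Neighbouring steps share an array, so their values are not independent, and the first step spans more days than each later one. List medians of every step use the members measured at day 2 or day 6. Among the 14 lists drawn by step, those with their largest median, by size, in the first step were cholesterol synthesis, small leucine-rich proteoglycans, fibrous matrix, the Wnt list, mitosis and ribosome biogenesis. The mitosis median was nearly the same in the next step (-0.61, then -0.58 from day 6 to day 9). Adipocyte, interferon and bone genes had their largest median from day 6 to day 9. So did DNA replication (-0.55) and the genes induced early by growth factor signalling (0.89). Cartilage matrix had it from day 9 to day 12 (-1.04), and glycolysis and other low-oxygen genes from day 12 to day 15 (1.46 and 1.55). Of genes whose days 9, 12 and 15 lay within 2-fold of day 6 after flooring, the 6 largest differences each way were those of Bmp4, Sfrp2, Gdf10, Comp, Ndnf and Rcan2 on the higher side, and Hbegf, Slc14a1, Megf10, Pkp2, Aldh3a1 and Cst6 on the lower.

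**Figure D5:**
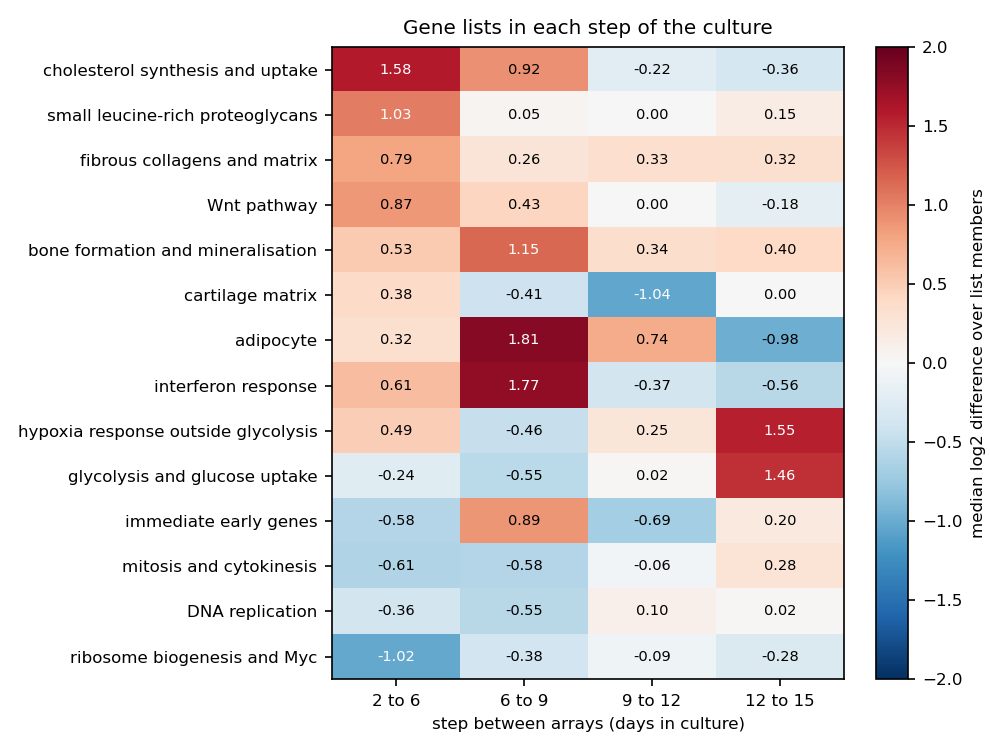
Median log2 difference over the measured members of 14 gene lists (rows) in each step between consecutive arrays (columns, days in culture), 1 array per day, with members chosen as measured at day 2 or day 6. Cholesterol synthesis (1.58) and ribosome biogenesis (-1.02) have their largest values from day 2 to day 6, adipocyte (1.81) and interferon genes (1.77) from day 6 to day 9.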

How the data were processed

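One Affymetrix array each was measured at days 2, 6, 9, 12 and 15 of culture. The deposited values are signal intensities from MAS5, per the submitters' processing notes, on a linear scale; the software version and background settings are not given in the sources used here. The number of arrays limits the precision, and no replicate error can be had. Of 45101 probe sets 34945 have 1 gene symbol in the platform annotation, 932 several and 9160 none, and 64 are controls; symbols were updated through the RefSeq gene table (GRCm38.p6), which held 34884 of them.

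A floor of 73.1, the 40th percentile over all arrays, replaced lower values, and the probe set with the highest mean stood for each gene. The difference is log2 of day 6 minus day 2, and 2-fold is the threshold; a gene was measured if it exceeded the floor on either day. No test was run. Named are the 12 largest differences each way, the 6 largest bounds each way, marked genes and the 4 largest differences of each list, the 6 largest each way whose later days stayed within 2-fold of day 6, and the 6 highest peaks and deepest troughs at day 6; 24 further genes were named after their values were seen. The members and the 43 lists were chosen with earlier results of these data known. Of 1074 listed genes 1008 had a probe set and 881 were measured. Alternatives were other floors, filters, a pseudocount, other choices of probe set, quantile normalization and a common median. Promoters came from RefSeq. Scripts used Python 3.11.15, numpy 2.4.6, pandas 2.3.3 and matplotlib 3.10.9, and were tested on simulated data. The simulation changed only genes well above the floor, with less noise than that between probe sets here. It therefore does not show how counts near the floor behave.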

Additional observations from a re-analysis of the deposited data

How the results depend on the processing

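No paired analysis was possible because each day had 1 array, and for the same reason no replicate could be left out. The count of genes higher and lower by 2-fold or more (1322 and 958) was 2626 and 2275 with the floor at the 20th percentile, 699 and 403 at the 60th, and 721 and 302 with a filter on mean intensity at the 70th percentile; the lower count was 612 with a filter at the median. The tendon median (1.39) was 2.22 and 2.06 with the lower and higher floor and 2.28 and 3.28 with the filters. The smooth muscle median (1.20) was 0.58 with the higher floor, 0.59 with probe sets chosen on days 2 and 6 and 0.50 with the mean over probe sets. The epithelial median was -1.28 and -2.40 with the median and 70th percentile filters. The stricter of these also gave 1.68 for small leucine-rich proteoglycans, 1.89 for skeletal muscle (2 members), 0.61 for macrophages (1 member), and turned the direction for endothelial (0.12, 1 member) and glial genes (0.13, 4 members). These filters leave fewer genes by construction. Quantile normalization and a common median moved none of the 45 counts and medians past these limits. The second brightest probe set turned the log2 difference of 13 named genes: Bvht 0.37, Cenpa 0.26, Csf1r 0.68, Egr3 -0.16, Ggct 0.35, Gli2 -0.96, Msmo1 -0.066, Nudt6 0.13, Panx3 -0.068, Rgcc -0.44, Rtp4 -0.50, Slc7a11 0.37 and Tyms 0.41; the cause was not tested. In all 380 values of counts and lists kept their size and direction under an alternative, 19 moved and 2 reversed. Of the values of the 336 named genes 2758 stayed within 1.5 times, 316 moved further and 13 reversed. With the second brightest probe set alone 108 stayed within 1.5 times, 73 moved further and 13 reversed. Genes at the floor give only bounds.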

Other observations

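Some genes stood apart from their neighbours in time at day 6 alone. Bfsp2, a filament protein known from the lens, had 28.2, 338, 37.0, 50.2 and 35.2 at days 2, 6, 9, 12 and 15. Ager, the receptor for advanced glycation end products, had 48.6, 274, 37.0, 38.2 and 26.3 (a second probe set lay below the floor on both days). Rab3b, a small GTPase of vesicle release, had 48.7, 285, 22.0, 21.0 and 20.7, and Spint2, a membrane protease inhibitor, 129, 476, 129, 129 and 176, its first step being 3.68-fold higher (1.46-fold higher by a second probe set). Genes lower at day 6 than on either side included, besides Nudt6, Lactb, a mitochondrial protein, with 424, 65.4, 312, 202 and 201, B3gnt5, a glycolipid enzyme, with 581, 83.1, 294, 340.1 and 194 over the arrays and a first step of 6.98-fold lower (at least 3.72-fold lower by a second probe set), and Tpd52l1, with 385, 103, 344, 309 and 272. With 1 array a day, a peak or trough at day 6 and an error of that array cannot be told apart.

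Probe sets with no gene symbol, or with several, were not part of the gene counts. Of these 5879 were measured, with 497 (8.45%) up by 2-fold or more at day 6 and 385 (6.55%) down.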
